A study of Mus musculus with 12 samples.

Results

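The circadian clock of the small intestine was followed through a fast by the transcripts of its core genes. Probes were taken by name: every probe that is no control and that the 12 h files name Per1, Per2, Per3, Cry1, Cry2, Arntl, Clock, Nr1d1, Nr1d2 or Dbp. Of these 10 genes, 4 had a probe, with 1 probe each among the 20280 analysed: Arntl, Clock, Cry1 and Cry2. No probe of the other 6 names was found, so the Period genes, the Rev-erb receptors and Dbp were not analysed here.

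The RNA came from the full thickness of the small intestine of male FVB mice, aged 6 weeks, kept in a 12-hour light and dark cycle. The mice were either fed or had gone 12, 24 or 72 h without chow, and from 24 h on an infrared lamp warmed them. All 4 groups were killed in the same morning hour, between 9 and 10, so the time of day at killing did not differ. No course over the day was measured. Counted back from that hour, chow was removed in the evening for the 12 h mice and in the morning for the 24 and 72 h mice. In comparisons with 12 h, the length of the fast and the hour of food removal cannot be told apart. Each group comprised 6 mice in 3 pools of 2, and each pool was labelled with Cy3 and hybridised on its own array against Cy5-labelled RNA from fed mice, with no dye swap. The pools at different time points are different mice. The reference is named as a pool of 6 fed mice, except that the source of fed replicate 3 names its own 2 mice while its labelling protocol names the 6, and the results below are also given without that array. In whole tissue, fewer cells of a type and less RNA per cell cannot be told apart.

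The clock of mammalian cells is a loop of transcription and repression. Clock and Arntl (also called Bmal1) are the activators: as a pair they bind E-box motifs and switch on the Per and Cry genes. The Cry and Per proteins are the repressors, which return to the nucleus and shut the pair off. A side loop sets the level of Arntl itself, since Rev-erb receptors (Nr1d1, Nr1d2) repress it and ROR receptors activate it through a shared element, the RORE. The gut has such a clock of its own, for which the time of feeding is a strong cue.

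The 4 genes lie on different chromosomes of the mouse assembly GRCm38.p6. Arntl spans chr7:113178471-113314126, Clock chr5:76209868-76305603, Cry1 chr10:85131700-85185054 and Cry2 chr2:92403646-92434085. Their probes are A_65_P13480, A_65_P10332, A_65_P00956 and A_65_P12439, and the position of each probe within its transcript was not analysed here. All 4 genes were found in a table of RefSeq promoters for that assembly, each window running from 250 bases before a start site to 50 bases after it. The windows below are those of the 2 genes whose ratio passed the test, Arntl and Cry2, and that of Cry1, the paralog of Cry2 that did not. They are written 5′ to 3′ on the strand of the gene, the + strand for Arntl and the − strand for the Cry genes, with motifs in capitals. The Arntl window is chr7:113207261-113207560, that of Cry1 is chr10:85185005-85185304, and that of Cry2 is chr2:92434020-92434319.
Arntl: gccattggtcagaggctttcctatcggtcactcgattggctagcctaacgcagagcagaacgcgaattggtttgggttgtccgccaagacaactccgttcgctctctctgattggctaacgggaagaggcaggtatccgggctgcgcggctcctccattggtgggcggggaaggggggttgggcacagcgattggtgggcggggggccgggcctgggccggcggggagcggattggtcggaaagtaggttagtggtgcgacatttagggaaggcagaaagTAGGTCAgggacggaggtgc
Cry1: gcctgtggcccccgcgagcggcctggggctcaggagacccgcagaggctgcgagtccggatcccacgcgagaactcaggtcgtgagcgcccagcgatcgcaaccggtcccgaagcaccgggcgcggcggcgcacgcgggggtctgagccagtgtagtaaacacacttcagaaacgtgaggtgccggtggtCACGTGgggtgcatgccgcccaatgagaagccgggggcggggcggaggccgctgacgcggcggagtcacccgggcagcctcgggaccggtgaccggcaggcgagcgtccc
Cry2: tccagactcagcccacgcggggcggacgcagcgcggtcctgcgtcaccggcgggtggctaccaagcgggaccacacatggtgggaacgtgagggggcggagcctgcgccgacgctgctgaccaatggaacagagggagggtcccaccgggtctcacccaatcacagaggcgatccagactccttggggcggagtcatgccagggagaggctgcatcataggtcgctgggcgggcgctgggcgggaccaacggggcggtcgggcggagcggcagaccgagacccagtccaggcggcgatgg
The 4 motifs of the clock were searched on both strands: the E-box CACGTG, the RORE as TAGGTCA or TGGGTCA, the D-box as TTATGTAA or TTACGTAA, and the cAMP response element TGACGTCA. The Arntl window holds 1 RORE, which begins 31 bases past its start site, and the other Arntl window of the table holds none of the 4 motifs. The Cry1 window holds 1 E-box, which begins at position -60 from the start site. The Cry2 window and the 3 windows of Clock hold none. Of all 32851 promoters of the table, 7.15% hold the E-box, 6.45% the RORE, 1.06% the D-box and 1.79% the cAMP response element, so a single match is a description of these letters and says nothing of which factor binds there.

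Levels are given as the log2 of Cy3 over Cy5 after background correction and quantile normalization. On this scale 0 means a signal equal to the fed reference and 1 means a doubled ratio. Changes are differences between time point means ± the standard error of the fit, and a change was called when its adjusted p, by limma with Benjamini-Hochberg adjustment over all probes, was under 0.05.

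Arntl and Cry2 were higher in the fasted intestine, while no change of Clock or Cry1 passed the test. Arntl was higher than in fed pools at 12, 24 and 72 h, with the largest change at 72 h, and the 24 h change was lost whenever any single array of the comparison was left out. Cry2 was higher at 24 and 72 h. At 24 h neither gene was called in Cy3 alone (0.15 for Arntl and 0.43 for Cry2, limma, adjusted p = 0.59 and 0.12). Against fed, 1 of the 4 probes was called after 12 h, 2 after 24 h and 2 after 72 h, all of them higher, beside 4.9%, 3.79% and 4.8% of all probes called higher at these times. In the F-test over the 3 contrasts with fed, 2 of 4 were called, beside 24.9% of all probes. The median change of the 4 probes was 0.32, 0.42 and 0.64, while the median over all probes lay between -0.02 and 0.02.

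**Figure D1:**
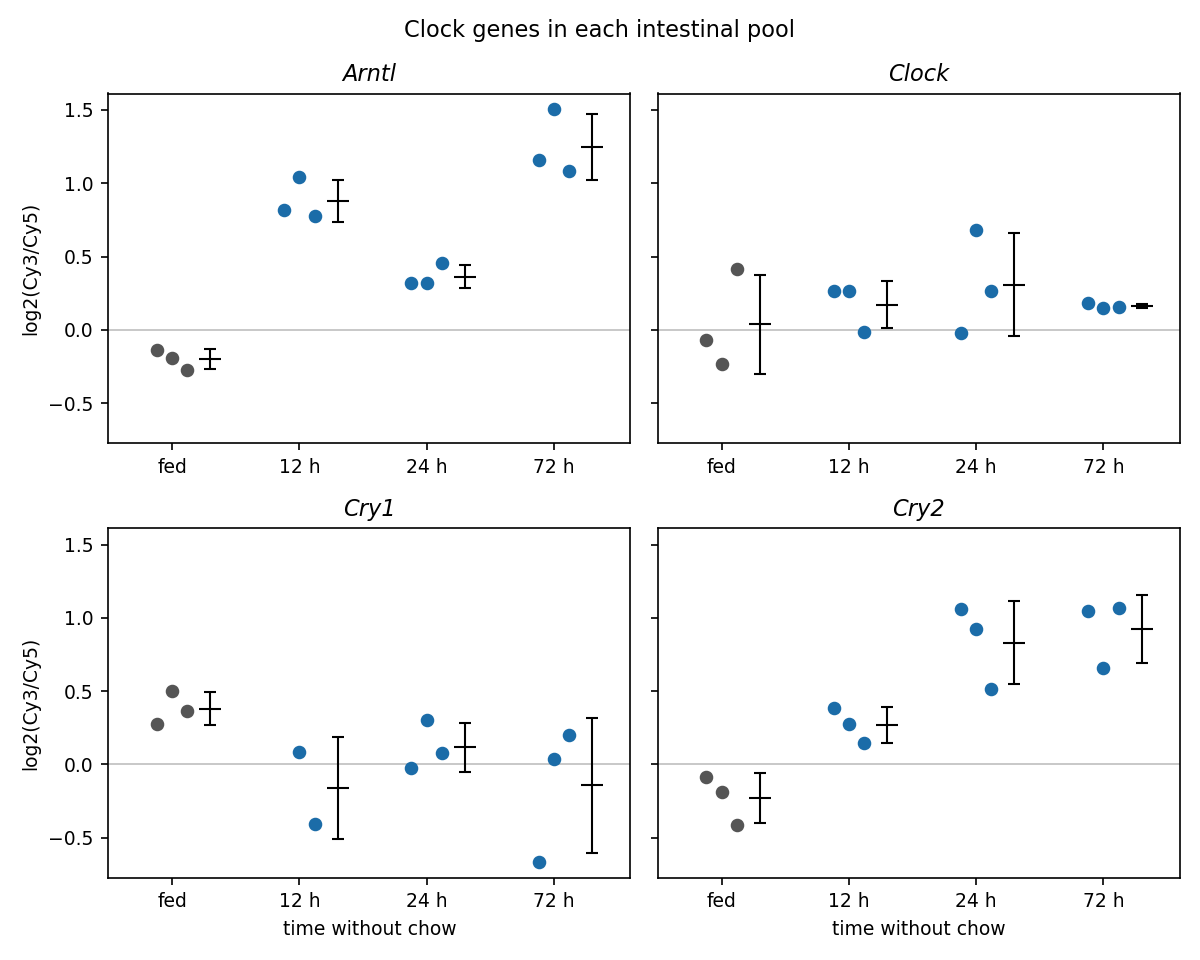
Level of each clock gene in each pool, as log2(Cy3/Cy5) on the vertical axis, against the time without chow; points are pools of 2 mice and the bar is the mean with the SD over the pools (n = 3, and n = 2 for Cry1 at 12 h). For Arntl all fed pools lie below 0 and all fasted pools above it, Cry2 climbs to a mean of 0.92 at 72 h, and the time points of Clock overlap.

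Arntl encodes the activator that pairs with Clock, and its loss stops the clock. In the fed pools its log2 ratio was -0.14, -0.19 and -0.27. After 12 h it was 0.82, 1.05 and 0.78, and after 24 h it was 0.32, 0.32 and 0.46. At 72 h it reached 1.16, 1.5 and 1.08. Thus all 9 fasted pools lay above all 3 fed pools, which was so for 3.89% of probes, and the fasted time points did not overlap either. Of all probes, 10.2% lay lower at 24 than at 12 h without overlap, 15.2% higher at 72 than at 12 h and 19.9% higher at 72 than at 24 h. Against fed, Arntl changed by 1.08 ± 0.16 after 12 h (adjusted p = 0.0023), by 0.57 ± 0.16 after 24 h (adjusted p = 0.035) and by 1.45 ± 0.16 after 72 h (adjusted p = 0.00016). Arntl was 1 of 70 probes, or 0.345% of all, that were called higher at each of the 3 times.

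The means of Arntl did not rise in the order of the fast, but the lower mean at 24 than at 12 h was not called. In order of their means the time points ran fed (-0.20 ± 0.07, SD, n = 3), 24 h (0.36 ± 0.08), 12 h (0.88 ± 0.15) and 72 h (1.25 ± 0.22). From 12 to 24 h, where 2.92% of all probes were called, the difference was -0.52 ± 0.16 and missed the threshold (adjusted p = 0.085), as did the gain of 0.37 ± 0.16 from 12 to 72 h (adjusted p = 0.14). The gain of 0.89 ± 0.16 from 24 to 72 h passed it (adjusted p = 0.0040), where 5.87% of all probes were called higher. Neighbours in this order therefore differed by the test only for 24 h against fed. That call did not survive the loss of an array: leaving out each array of the comparison in turn gave changes of 0.52 to 0.60 with adjusted p from 0.072 to 0.099.

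Arntl was a dim probe. In the fed pools its Cy3 signal was 128 to 170 over a local background of 39 to 41, and the scanner software called it well above background on 0 of 3 fed arrays. In all 9 fasted pools it was well above background, with signals of 227 to 302 after 12 h, 130 to 174 after 24 h and 356 to 476 after 72 h. Since the fed level is only a bound, the mean Cy3 signal was at least 1.33-fold higher after 12 h and at least 2.67-fold higher after 72 h. After 24 h the same bound was 1.03-fold, but the Cy3 change at that time was not called (0.15, limma, adjusted p = 0.59). These bounds compare group means without their sampling error. They were taken in Cy3 on values normalized by loess and Aquantile and are open to dye bias. The measured normalized log2 means behind them were 6.50 in fed pools against 7.01, 6.64 and 8.02.

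Cry2 encodes a cryptochrome, one of the repressors of the Clock and Arntl pair. Its log2 ratio in the fed pools was -0.09, -0.19 and -0.41. At 12 h it was 0.39, 0.28 and 0.14, and at 24 h it was 1.06, 0.92 and 0.51. At 72 h it was 1.05, 0.66 and 1.06. In Cy3 the probe was well above background on only 1 of 3 fed arrays, with signals of 182 to 204, and on all 9 fasted ones. The fasted signals were 202 to 303 at 12 h, 169 to 206.5 at 24 h and 292 to 573 at 72 h. Those at 24 h overlapped the fed signals, so the flag there does not show a rise. In the ratio, again every fasted pool lay above every fed pool, and the same held for 13.5%, 20.2% and 20.9% of all probes after 12, 24 and 72 h. The 12 h pools lay below all 24 h pools, as in 11.7% of probes, and below all 72 h pools, as in 15.2%, while the 24 and 72 h pools overlapped. The change against fed was 0.50 ± 0.18 at 12 h and not called (adjusted p = 0.089). On the scale of the ratio it was 1.06 ± 0.18 after 24 h, or 2.08-fold (adjusted p = 0.0043), and 1.15 ± 0.18 at 72 h, or 2.22-fold (adjusted p = 0.0015).

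The time points of Cry2 followed the length of the fast, from fed (-0.23 ± 0.17, SD, n = 3) through 12 h (0.27 ± 0.12) and 24 h (0.83 ± 0.28) to 72 h (0.92 ± 0.23), but no step between neighbours was called. From 12 to 24 h the difference was 0.56 ± 0.18 (adjusted p = 0.11), and from 24 to 72 h it was 0.09 ± 0.18 (adjusted p = 0.79, 95% interval -0.30 to 0.48). Over the longer span, 72 h was above 12 h by 0.65 ± 0.18 (adjusted p = 0.034), where 5.84% of all probes were called higher. This call was lost when 12 h replicate 2 or 3 or 72 h replicate 1 or 3 was left out, with changes of 0.66, 0.59, 0.59 and 0.58. 

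Cry1 encodes the second cryptochrome. Its log2 ratio was 0.28, 0.50 and 0.37 in fed pools, the only one of the 4 genes with all fed pools above 0. At 12 h the spot of replicate 1 was marked as an outlier and left out, and the other pools had 0.08 and -0.41. At 24 h the values were -0.02, 0.30 and 0.07, and at 72 h they were -0.67, 0.04 and 0.20. Hence the 72 h pools lay below all fed pools, as in 20.2% of probes, but 1 of them stood far below the other 2. Cry1 changed by -0.54 ± 0.25 after 12 h (adjusted p = 0.16), by -0.26 ± 0.22 after 24 h (adjusted p = 0.47) and by -0.52 ± 0.22 after 72 h (adjusted p = 0.16), with a 95% interval of -1.0 to -0.05 at 72 h. No decrease of Cry1 was thus called, and a decrease of the size of its estimates is not excluded by 3 pools.

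Clock encodes the partner of Arntl in the activator pair. Its log2 ratio was -0.07, -0.23 and 0.41 in fed pools and 0.27, 0.26 and -0.01 at 12 h. It was -0.02, 0.68 and 0.26 at 24 h and 0.18, 0.15 and 0.16 at 72 h. Every fasted time point lay within or across the range of the fed pools. Its change was 0.13 ± 0.20 after 12 h (adjusted p = 0.69), 0.27 ± 0.20 after 24 h (adjusted p = 0.41) and 0.13 ± 0.20 after 72 h (adjusted p = 0.75), and the 95% interval at 72 h was -0.31 to 0.56. Clock was well above background in Cy3 on 2 of 3 fed arrays and on all fasted ones.

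A ratio can move with either dye, and the Cy5 channel held fed RNA on every array. For that reason both channels were also fitted by themselves. At 72 h the change of both genes lay in Cy3: it was 1.51 for Arntl (adjusted p = 0.00038) and 1.14 for Cry2 (adjusted p = 0.0024), while Cy5 moved by 0.06 and -0.02. At 12 h the Arntl change was 0.64 in Cy3 (adjusted p = 0.036) and -0.44 in Cy5 (adjusted p = 0.056). At 24 h the larger share of the Arntl change was in the reference, with 0.15 in Cy3 (adjusted p = 0.59) and -0.41 in Cy5 (adjusted p = 0.073).

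Cry2 leaned on the reference more. At 12 h its Cy3 signal differed from fed by -0.04 and its Cy5 signal by -0.54 (adjusted p = 0.019). At 24 h the Cy3 change was 0.43 and was not called (adjusted p = 0.12), while the Cy5 signal was lower by -0.63 (adjusted p = 0.0084). Between fasted time points the calls also held in Cy3, where Arntl was higher at 72 than at 24 h by 1.36 (adjusted p = 0.00047) and Cry2 was higher at 72 than at 12 h by 1.18 (adjusted p = 0.0010). Over the 3 contrasts with fed, the 4 probes gave 3 calls in Cy3, which were Arntl at 12 and 72 h and Cry2 at 72 h, and 2 calls in Cy5, which were Cry2 at 12 and 24 h. Of all probes, 15%, 24.6% and 8.65% were called in Cy3 after 12, 24 and 72 h, and 21.9%, 20.4% and 0% in Cy5, where 870 of 20272 probes had an unadjusted p under 0.05 in limma after 72 h.

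**Figure D2:**
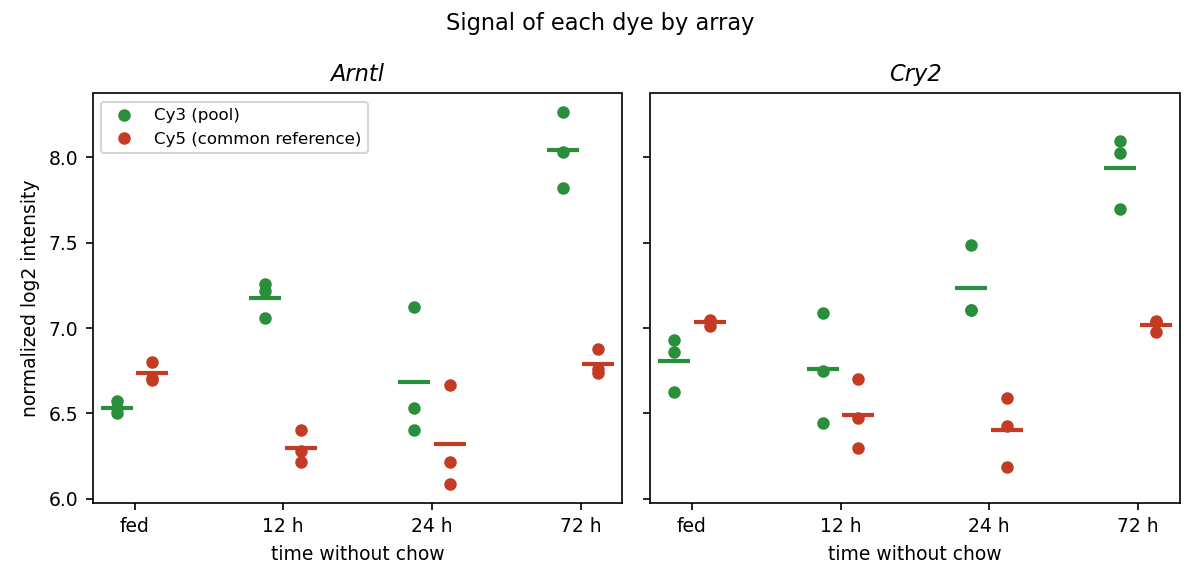
Normalized log2 intensity of Arntl and Cry2 in each dye and array against the time without chow; points are arrays, Cy3 is the pool and Cy5 the fed reference, and short lines are means (n = 3). At 72 h the Cy3 points rise and the Cy5 points stay at the fed level, while at 12 and 24 h the Cy5 means lie lower than in the fed arrays.

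By their Cy5 level the arrays fell into 2 kinds that follow the time points. The median Cy5 signal was 133 to 142 on fed and 124 to 134 on 72 h arrays, but 404.5 to 627 on 12 h and 392 to 436 on 24 h arrays. Within a kind lie the comparisons of 72 h with fed and of 24 h with 12 h. In all other comparisons the kind of array and the fast cannot be told apart. Arrays within a kind differed as well. The median Cy3 signal was 231.5 to 295.5 on 12 h and 166.5 to 171.5 on 24 h arrays. The median Cy5 signal divided by its median background was 1.87 to 2 on fed and 1.65 to 1.68 on 72 h arrays. Nor can these differences be told apart from the fast. The fed array with the doubtful reference did not carry the results: without fed replicate 3 the Arntl change was 1.05, 0.53 and 1.42 at 12, 24 and 72 h, and that of Cry2 was 0.41, 0.97 and 1.06. The 24 h change of Arntl was then no longer called (adjusted p = 0.092).

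Over the 12 arrays the correlation of Arntl with Cry2 was 0.61 and that with Clock was 0.12, while with Cry1 it was -0.60 over 11 arrays. These arrays share a reference and 4 group means, so the coefficients describe the courses. Among 6260 named probes with a value on every array, the probes most like Arntl over the 12 arrays were Rrbp1 (r = 0.91), a ribosome-binding protein of the endoplasmic reticulum, Atp1b1 (r = 0.91), the beta subunit of the sodium pump, and Rgs5 (r = 0.90), a regulator of G-protein signalling. The probes most like Cry2 were Dscr1l1 (r = 0.90), a calcineurin regulator, Nktr (r = 0.88), a cyclophilin-related protein, and Hmox1 (r = 0.88), the heme oxygenase. This likeness is of the ratio and was weaker in most single channels. With Arntl, in the order named, r was 0.71, 0.21 and 0.54 in Cy3 and 0.23, -0.36 and 0.67 in Cy5. With Cry2 it was 0.39, 0.71 and 0.83 in Cy3 and -0.47, 0.62 and 0.94 in Cy5. Dscr1l1 itself was not called in the F-test (adjusted p = 0.14).

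The proteins that tune the core loop had 27 probes for 18 genes, of 35 names looked for. Against fed, 2 were higher and 2 lower after 12 h, 1 was higher after 24 h, and 4 were higher and 1 lower at 72 h. Beside the 4.9% higher and 6.02% lower of all probes at 12 h and the 4.8% and 5.8% at 72 h, these are counts of a few genes. By the wider rule of a call in any contrast or the F-test, 11 probes of 10 genes were called. The share of all probes under that rule was not counted, while the F-test alone called 24.9% of them.

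Bhlhb2 (Dec1), which represses the Clock and Arntl pair at E-boxes, was lower by -1.34 ± 0.18 at 12 h (adjusted p = 0.0020) and by -0.93 ± 0.18 at 72 h (adjusted p = 0.0050). Most of this lay in the reference channel, for the Cy3 change was -0.23 at 12 h and -0.29 at 72 h.

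Both corepressor partners of the Rev-erb receptors had 1 probe called higher, with other probes of the same gene differing in sign. Ncor1 was higher by 0.57 ± 0.16 at 12 h (adjusted p = 0.035) and by 0.55 ± 0.16 at 72 h (adjusted p = 0.036). The other 2 probes of Ncor1 were not called, with -0.37 and 0.26 at 12 h and -0.30 and 0.31 at 72 h. Hdac3 was higher by 0.86 ± 0.23 at 72 h (adjusted p = 0.028), with its other 2 probes at 0.11 and -0.11 and not called. Ppara, the fatty-acid receptor that can activate Arntl, was higher by 1.02 ± 0.25 at 12 h (adjusted p = 0.022) and by 0.90 ± 0.25 at 24 h (adjusted p = 0.036), but at 12 h its Cy3 signal changed by -0.26.

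Timeless, a replication-fork protein linked to the clock, was higher by 1.15 ± 0.19 at 72 h (adjusted p = 0.0017). Gsk3b, a kinase that acts on several clock proteins, was higher by 0.75 ± 0.16 at 72 h (adjusted p = 0.0091). No probe of a casein kinase, the enzymes that phosphorylate clock proteins, was called against fed at a single time, though 1 of Csnk1e and that of Csnk2b were called in the F-test. Between fasted time points, where 5.84% of all probes were called higher at 72 than at 12 h, 2 probes of Csnk1e were higher by 0.74 and 0.69, while a further probe of it had 0.20 and was not called. In that comparison Csnk2b was lower by -1.78, and Csnk1d was lower at 72 than at 24 h by -0.86. Of all probes 4.92% were called lower in the first of these comparisons and 4.73% in the second.

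Of 32 names of clock-driven or rhythmic outputs, 14 genes had 16 probes. Against fed, 0 were higher and 2 lower after 12 h, 5 were higher and 2 lower after 24 h, and 4 were higher and 1 lower at 72 h. Among all probes 3.79% were called higher and 6.26% lower at 24 h. The median over the 16 probes was 0.06 after 12 h, 0.51 after 24 h and 0.06 after 72 h.

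The outputs called higher at 24 h were Fkbp5, Sgk, Klf9, Gilz and Wee1. Fkbp5, a cochaperone of the glucocorticoid receptor, was higher by 1.76 ± 0.27 at 24 h (adjusted p = 0.0024) and by 2.36 ± 0.27 at 72 h (adjusted p = 0.00019). Sgk, a kinase induced by serum and glucocorticoids, was higher by 1.21 ± 0.17 at 24 h (adjusted p = 0.0016) and by 1.72 ± 0.17 at 72 h (adjusted p = 0.00010). Klf9, a Krüppel-like factor, was higher by 0.88 ± 0.23 at 24 h (adjusted p = 0.029) and by 1.49 ± 0.23 at 72 h (adjusted p = 0.0014). In these 3 genes the Cy3 signal alone moved the same way at 72 h, by 2.58, 2.02 and 1.72. Gilz, the glucocorticoid-induced leucine zipper, was higher at 24 h by 1.63 ± 0.26 (adjusted p = 0.0029), with 0.80 ± 0.26 at 12 h not called (adjusted p = 0.059), and it was lower at 72 than at 24 h by -1.12 ± 0.26 (adjusted p = 0.015).

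Both cold-inducible RNA-binding proteins, whose transcripts follow body temperature, were called but with different courses. Cirbp was lower at 24 h by -1.08 ± 0.17 (adjusted p = 0.0032) and higher at 72 h by 1.46 ± 0.17 (adjusted p = 0.00027), a difference of 2.54 ± 0.17 between these times (adjusted p = 8.6e-06). Its Cy3 change was -0.21 at 24 h and 1.66 at 72 h. Rbm3 was lower at 12 h by -1.18 ± 0.19 (adjusted p = 0.0041) and at 24 h by -0.83 ± 0.19 (adjusted p = 0.017), and its change of -0.23 at 72 h was not called. In Cy3 alone Rbm3 changed by -0.39 at 12 h and -0.35 at 24 h, neither of them called, while its Cy5 signal was higher by 0.79 at 12 h (adjusted p = 0.014). The 12 h mice were killed before the warming lamp was used, and the 24 h mice at about the time it was started. In the changes at 72 h its effect and that of the fast cannot be told apart.

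Among the remaining outputs, Wee1, a kinase that restrains entry into mitosis, was higher at 24 h by 0.64 ± 0.19 (adjusted p = 0.046). Slc2a2, the glucose transporter GLUT2, was lower by -0.74 ± 0.21 at 12 h (adjusted p = 0.036) and by -0.94 ± 0.21 at 72 h (adjusted p = 0.0094). The fructose transporter Slc2a5 was lower at 72 than at 12 h by -2.17 ± 0.58 (adjusted p = 0.029), and so was Alas1, the first enzyme of heme synthesis, by -1.31 ± 0.33 (adjusted p = 0.020).

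**Figure D3:**
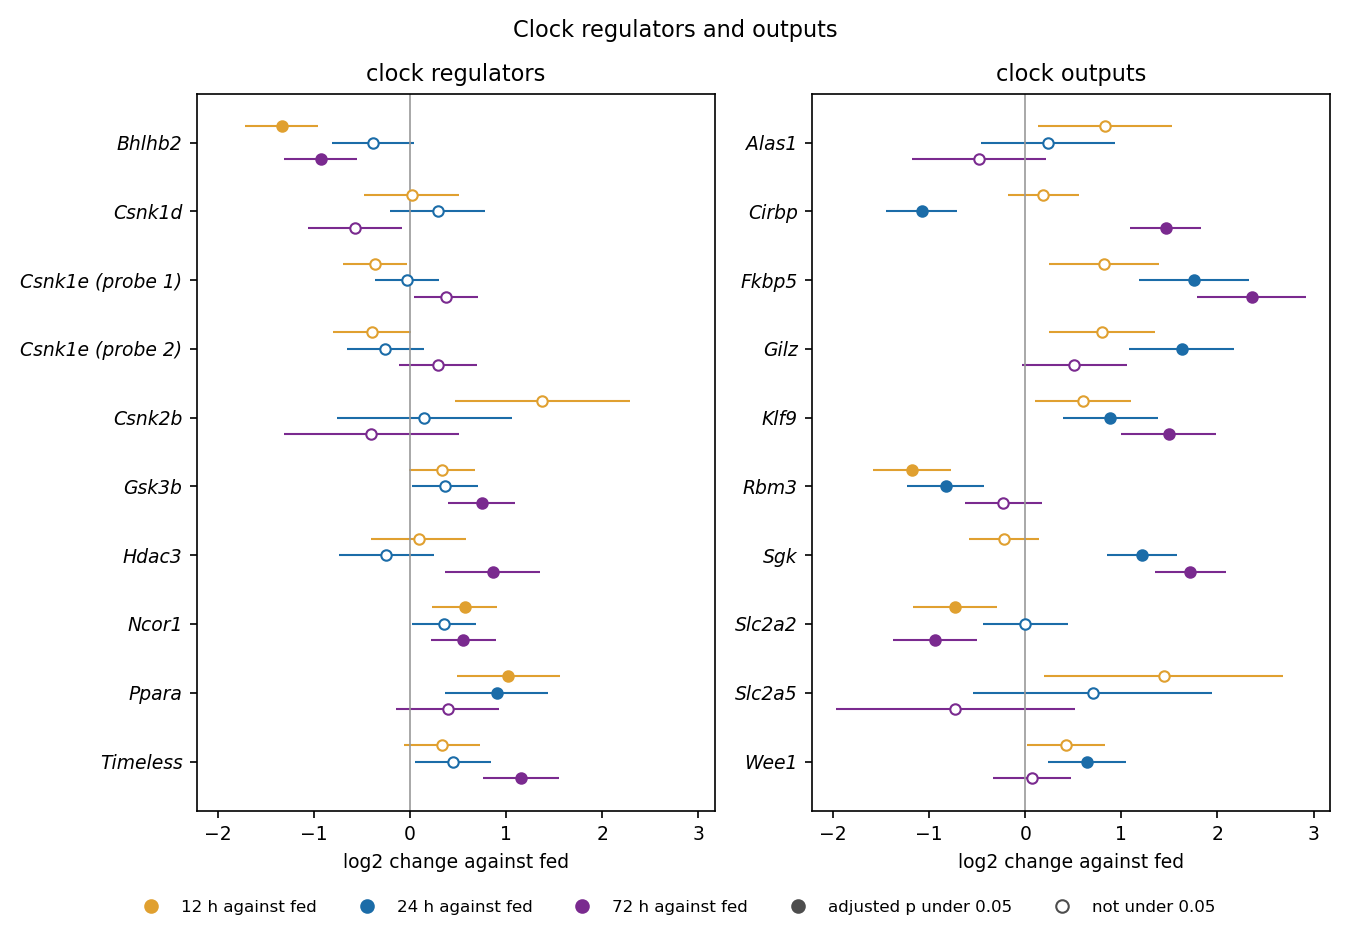
Change against fed of the regulator (left) and output (right) probes named in the text, as a log2 difference with its 95% interval on the horizontal axis; colours are the times and filled points have an adjusted p under 0.05. Fkbp5 reaches 2.36 at 72 h, and Cirbp stands at -1.08 at 24 h but 1.46 at 72 h.

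Markers of some cells in the gut wall moved with the time points as well. Enterocyte probes were well above background on every array, and 1 of 5 was called higher than fed after 12 h, 0 after 24 h and 1 after 72 h, with medians of 0.20, 0.31 and 0.64. Their mean log2 ratio per array ran from -0.80 to 0.02 in fed pools, 0.06 to 1.79 after 12 h, 0.13 to 0.35 after 24 h and 0.0071 to 0.086 after 72 h. Of the 3 Paneth cell probes, 1 was called higher after 12 h and 0 later, with medians of 2.02, 0.28 and 0.60, and their mean ratio ran from -2.27 to 1.04 in fed pools and from 0.83 to 3.21 after 12 h. Beside the 4.9%, 3.79% and 4.8% of all probes called higher, smooth muscle probes were higher than fed in 3 of 5 cases after 12 h, 1 after 24 h and 2 after 72 h, and their mean log2 ratio per array ran from -0.71 to 0.02 in fed pools, 0.60 to 1.34 after 12 h, 0.32 to 0.50 after 24 h and 0.06 to 0.32 after 72 h. At 72 h the mean ratio of the muscle markers was closer to fed than at 12 h, but it still lay above that of every fed pool. The 2 B and plasma cell probes were both lower at 72 h, as were 5.8% of all probes, with a mean of -2.44 to -1.98 against -0.20 to 0.14 in fed pools. Of these markers, 1 smooth muscle probe was not well above background on every fed array, and their part in the clock gene changes was not tested. The 2 T cell, 2 enteric neuron and glia, 1 exocrine pancreas and 1 adipose probes were not called against fed at any time. No goblet cell marker had a probe.

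The size of the changes depended on the processing. With the scanner software's own ratios, which replace both the background step and the normalization, the 72 h change was 2.43 for Arntl and 1.85 for Cry2, and the 24 h changes were 1.14 and 1.90. With the background step alone changed, the 72 h changes were 1.56 and 1.22 for plain subtraction and 0.99 and 0.80 for no correction. At 72 h both genes were called under all 14 alternatives that kept every array. These are not 14 separate checks. The authors' table repeats the software's ratios, and the methods' thresholds change only the rule for a call on the same fit. With only the 12 h and fed arrays in the fit, the 12 h change of Arntl was not called (adjusted p = 0.081), and neither was any other probe, with 0 of 20278 called by limma and 4237 at an unadjusted p under 0.05.

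**Figure D4:**
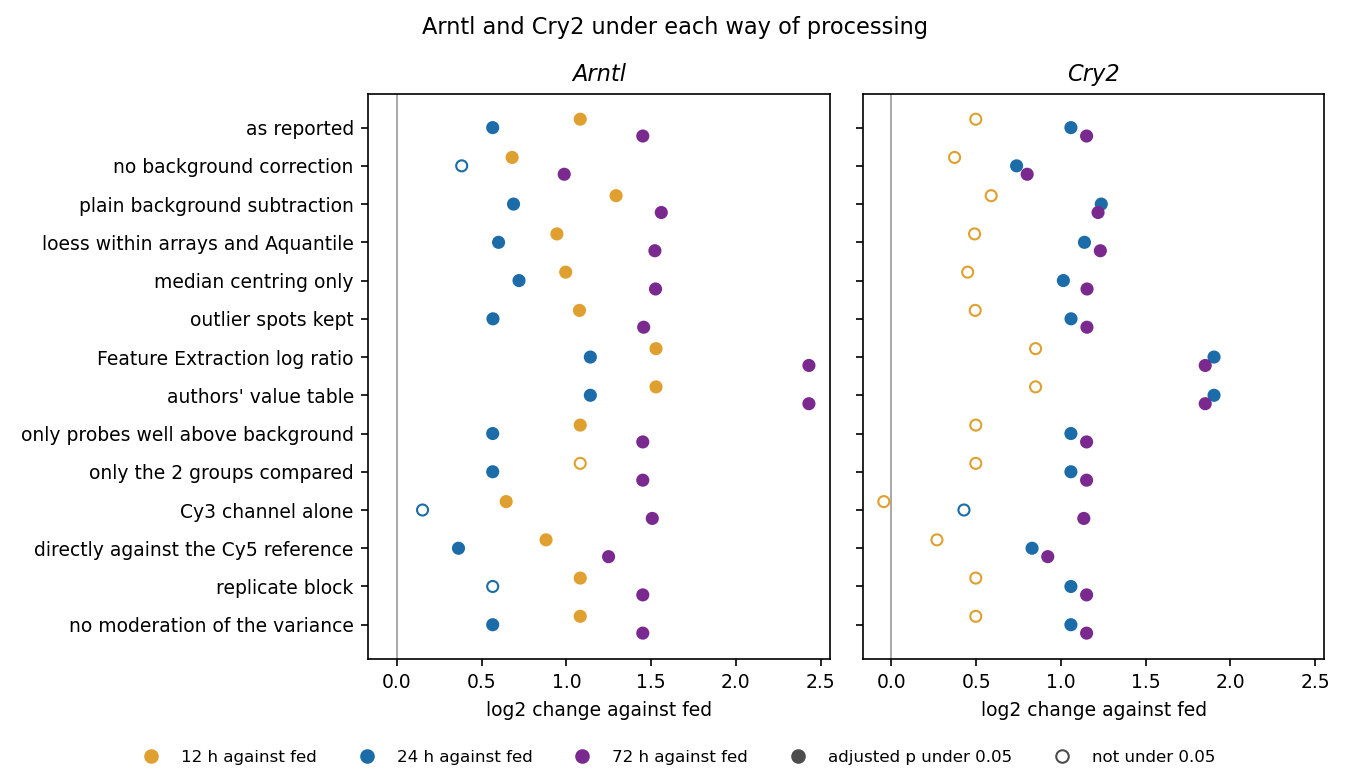
Change of Arntl (left) and Cry2 (right) against fed, as a log2 difference on the horizontal axis, under each way of processing; colours are the times and filled points have an adjusted p under 0.05. All 72 h points are filled and lie between 0.99 and 2.43 for Arntl and between 0.80 and 1.85 for Cry2, while the Cy3 channel alone leaves the 24 h points open.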

How the data were processed

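RNA of 12 intestinal pools, 3 per time point, was measured on 2-colour Agilent oligonucleotide arrays, with groups taken from the labels. The authors deposited the output of Feature Extraction 6.1.1, which per the file headers gives a median foreground and background intensity for each dye, neither corrected nor normalized, with flags. The deposited log ratio, a log10 of Cy5 over Cy3, and the authors' table of values, which is its exact negative, were treated as a score, since the decimal point of some cells had moved. Cells of 10 or more were scaled back if that gave a size below 2 and were otherwise left out. Those between 2 and 10 were left out too.

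Background was corrected with normexp (offset 50), the 24 channels were quantile normalized together, and control spots, outlier spots and 91 spots without a probe name were left out. Saturated spots were kept. Log2(Cy3/Cy5) was fitted with limma 3.58.1 (R 4.3.3, with version 1.17.8 of data.table) with a mean per time point, 6 contrasts, eBayes and Benjamini-Hochberg adjustment over 20280 probes. The code was tested on simulated data. Plots used matplotlib 3.10.9. The methods' Split-Factor ANOVA was not repeated. Each channel was also fitted alone. The number of arrays limits the precision, and p-values measure the spread between pools.

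The members and lists were chosen with earlier results of these data known. Named were all member probes, list probes called in any contrast or the F-test (1 of them is not reported here), and the 3 probes most correlated with each member called in the F-test. Promoters are from RefSeq (GRCm38.p6).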

Additional observations from a re-analysis of the deposited data

Results flagged for a closer look

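The change of Arntl against fed differed between time points. It was 1.45 at 72 h and 0.57 at 24 h, a difference of 0.89 ± 0.16 on the log2 scale (limma, adjusted p = 0.0040). Every 72 h pool lay above every 24 h pool, as in 19.9% of probes. These times also differ in the kind of array, which cannot be told apart from the fast. The difference kept its call without any single array, with values of 0.76 to 0.97.

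The change of Cry2 differed between 72 and 12 h, by 0.65 ± 0.18 (limma, adjusted p = 0.034). Every 72 h pool lay above every 12 h pool, as in 15.2% of probes, and here too the kind of array and the fast cannot be told apart. This difference was called in 2 of the 6 fits with an array left out, over which it ran from 0.58 to 0.79.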

How the results depend on the processing

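At 72 h against fed, 2 clock probes were called under every alternative run and without each array (2 to 2). For 12 h against fed the count was 1, and 0 with only the arrays of both groups in the fit (1 to 1 over left-out arrays). For 24 h against fed, where 2 were called, 1 was called without background correction, 0 in Cy3 alone, and 1 without each array (1 to 1). The numbers of the pools come from different mice and were no pairs: deviations from the group means correlated at -0.30 to 0.13 over the 18 same-numbered pairs and at -0.29 to 0.32 over the others. With the replicate block 1 probe was called at 24 h, since the adjusted p of Arntl rose to 0.051, the calls in Cy3 were 2, and no other count changed. For 24 h against 12 h, 0 of 4 were called at an adjusted p under 0.05 in limma, beside 2.92% of all probes. At an unadjusted p under 0.05 there were 2 (Arntl and Cry2), beside 4253 of 20280 probes. The methods' thresholds of p under 0.01 and 1.4-fold gave 2, beside 8.23% of all probes. For 72 h against 12 h, where 1 was called, the count was 0 with no background correction, plain subtraction, median centring, only both groups or no moderation of the variance. It was 2 with loess and Aquantile (10.7% of all probes called) or in Cy3 alone (18.2%), and 0 to 1 without an array. For 72 h against 24 h the count was 1, and 2 in Cy3 alone (16.4% of all probes called). In the Cy5 reference channel the 2 calls became 1 without any one of the fed arrays and 5, 4 and 4 without 12 h replicate 1, 12 h replicate 3 and 24 h replicate 3 (range 1 to 5), and the 3 calls in Cy3 ranged from 2 to 3.

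Changes that turned sign were small and were not called. Cry2 at 72 h against 24 h was -0.019 with plain subtraction, -0.052 with the software's ratio and with the authors' table, and -0.066 without 24 h replicate 3 (-0.066 to 0.23 over left-out arrays). In Cy3 alone Cry2 was -0.044 at 12 h and Clock -0.24 at 24 h against fed. Set directly against the Cy5 reference, Cry1 was 0.12 at 24 h. Without fed replicate 2, Clock was -0.00097 at 12 h and -0.0097 at 72 h (up to 0.32 and 0.31 without another array). The causes were not tested. No slide or scan day was found in the files, so that block was not run. The Arntl signal in fed pools, at most 170 over a background of about 41, limits how small its level there could be shown to be.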

Other observations

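Outside the probes named for a clock gene, 2 unnamed transcripts of the arrays bear on the same loci by their descriptions, and they were chosen after their values were seen. The transcript L0221D10-3, described as moderately similar to a PER3 protein, changed against fed by 0.36 ± 0.21, 0.46 ± 0.21 and 0.51 ± 0.21 after 12, 24 and 72 h, and none of these was called (adjusted p = 0.27, 0.17 and 0.14 by limma). The transcript K0547H05-3, whose description in the fed files lists a stretch of genes that includes Clock, changed by -0.39 ± 0.17, 0.23 ± 0.17 and -0.27 ± 0.17 at these times (adjusted p = 0.15, 0.41 and 0.35 by limma), with an F-test adjusted p of 0.047.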
